A study of Arabidopsis thaliana with 12 samples.

Results

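The jasmonate synthesis genes described here are LOX2, LOX3, LOX4, LOX6, AOS, AOC1, AOC2, AOC3, OPR3 and JAR1. These 10 genes were picked by gene identifier from the 33602 genes counted, with earlier results of these data known, and all 10 were among the 21151 genes with enough counts to be tested. RNA of whole Arabidopsis thaliana seedlings, 1 week old, was sequenced in 12 libraries, 3 in each of 4 groups. The groups were cdk8 seedlings given 50 µM abscisic acid (ABA) for 3 h, wild-type seedlings given the same ABA treatment, cdk8 seedlings after mock treatment and wild-type seedlings after mock treatment. CDK8 encodes the cyclin-dependent kinase of the Mediator kinase module, and the study's title places it in ABA signalling and drought response. The sources used here name neither the cdk8 allele nor the ecotype, nor the solution used as mock. Mock libraries are called 0h in the file headers, so that 3 h of time and handling may also separate ABA from mock. The labels do not say whether the 3 libraries of a group came from separate cultures, so p-values measure the spread between these libraries, which may be technical. In the sample titles the number of cdk8 ABA library 3 lies outside the unbroken run of the other libraries' numbers. The labels do not say why, so a separate preparation of this library is neither stated nor excluded.

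Jasmonates are lipid hormones that carry wound and herbivore signals, act in pollen maturation and are made from plastid trienoic fatty acids. In the plastid, 13-lipoxygenases (LOX2, LOX3, LOX4 and LOX6) oxygenate linolenic acid, allene oxide synthase (AOS) turns the hydroperoxide into an unstable epoxide, and allene oxide cyclases (AOC1, AOC2 and AOC3) close it into the ring of 12-oxo-phytodienoic acid (OPDA). In the peroxisome, OPR3 reduces OPDA before rounds of beta-oxidation shorten the side chain, and in the cytosol JAR1 joins jasmonic acid to isoleucine, which gives the form the COI1 receptor binds. Several of these genes are themselves induced by jasmonate and wounding, and ABA and jasmonate signalling are known to meet in wound and drought responses.

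Between 17675785 and 27415053 fragments were assigned to genes per library, and the 3 cdk8 ABA libraries were the deepest. The CDK8 gene (AT5G63610) had 5.2 to 10.5 CPM (a gene's count scaled to the size of the library) in cdk8 ABA libraries, against 26.7 to 29.4 CPM in wild-type ABA libraries, and 5.24 to 9.32 CPM in cdk8 mock libraries, against 19.7 to 21.9 CPM in wild-type mock libraries. It was lower in cdk8 by a log2 fold change of −1.77 ± 0.22 under ABA (SE, adjusted p = 0.000111) and of −1.60 ± 0.23 after mock (adjusted p = 0.000604). All 6 shoot markers and all 8 root markers had counts in every library. A library of each ABA group, cdk8 ABA library 2 and wild-type ABA library 3, stood apart from the rest of its group on a principal component with 3.1% of the variance. On a component with 3.49% they lay at −0.2 (against 22.6 and 20.9) and −28.4 (against −8.9 and −3.9). On one with 10.4% they lay at 25.7 (against 41.4 and 40.4) and −39 (against −27.7 and −27.4). Levels below are FPKM (CPM per kilobase of summed exon length, with library totals scaled by TMM), which can be compared between genes. Fold changes are log2 with their SE from 1 edgeR quasi-likelihood fit of all 12 libraries, and genes with a p under 0.05 after Benjamini-Hochberg adjustment over all genes tested were called.

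AOC1, AOC2 and AOC3 stand side by side on the same strand of chromosome 3 (TAIR10, chr3:9403883-9410567), with 1622 bases between AOC1 and AOC2, 1334 bases between AOC2 and AOC3, and 0 genes of the count table in between. Their coding sequences share 90.3% of aligned bases between AOC1 and AOC2, 82.7% between AOC1 and AOC3 and 82.4% between AOC2 and AOC3. Of the 50-base stretches of their exons, 2.66% in AOC1, 0.113% in AOC2 and 2.75% in AOC3 also occurred at another place of the genome, on either strand. These places included AOC3 for AOC1 and AOC2, and both AOC1 and AOC2 for AOC3. Reads within these shared stretches cannot be assigned with certainty. LOX3 and LOX4 share 80.6% of aligned coding bases, the other lipoxygenase pairs 60.4% to 62.8%, and no 50-base stretch of the remaining 7 genes occurred elsewhere. None of the 10 genes overlaps another gene of the table.

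The 250 bases before the RefSeq gene start (TAIR10.1) are shown for the tandem cyclase genes, whose levels moved in opposite directions under ABA, and for LOX2 and OPR3, whose ABA response was called as different between the genotypes. For OPR3 that call depended on single libraries, as given below. Each is written 5′ to 3′ on the gene's own strand, with capitals marking every ACGT, the core of many bZIP and bHLH binding motifs, and the CACGTT of AOC1, which is AACGTG (T/G-box) on the other strand.
AOC1 (chr3:9403529-9403778, plus strand): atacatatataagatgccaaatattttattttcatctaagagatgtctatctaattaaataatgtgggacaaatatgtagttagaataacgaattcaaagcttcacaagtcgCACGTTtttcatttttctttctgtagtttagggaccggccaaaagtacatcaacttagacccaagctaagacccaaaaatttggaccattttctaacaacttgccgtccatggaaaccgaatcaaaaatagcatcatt
AOC2 (chr3:9406419-9406668, plus strand): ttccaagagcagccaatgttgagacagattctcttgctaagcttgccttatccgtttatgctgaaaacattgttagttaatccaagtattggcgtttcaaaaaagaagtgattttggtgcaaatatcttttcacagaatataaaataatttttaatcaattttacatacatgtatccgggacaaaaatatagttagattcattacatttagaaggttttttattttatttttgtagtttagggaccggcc
AOC3 (chr3:9408910-9409159, plus strand): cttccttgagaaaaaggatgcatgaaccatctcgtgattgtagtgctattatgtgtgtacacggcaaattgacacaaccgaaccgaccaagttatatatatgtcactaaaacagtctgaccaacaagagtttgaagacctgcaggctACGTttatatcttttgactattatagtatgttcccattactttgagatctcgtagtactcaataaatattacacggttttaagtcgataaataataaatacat
LOX2 (chr3:16524995-16525244, plus strand): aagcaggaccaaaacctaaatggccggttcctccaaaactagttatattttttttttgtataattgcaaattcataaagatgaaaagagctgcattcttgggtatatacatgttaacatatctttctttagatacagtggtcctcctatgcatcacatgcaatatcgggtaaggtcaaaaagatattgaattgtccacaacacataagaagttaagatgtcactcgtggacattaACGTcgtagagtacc
OPR3 (chr2:2362376-2362625, minus strand): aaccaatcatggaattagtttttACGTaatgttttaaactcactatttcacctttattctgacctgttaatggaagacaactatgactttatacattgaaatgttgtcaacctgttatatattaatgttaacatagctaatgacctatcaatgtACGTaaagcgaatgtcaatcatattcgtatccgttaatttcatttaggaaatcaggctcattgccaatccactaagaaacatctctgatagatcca

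Within these windows AOC1 and AOC2 shared a 19-base run, tgtagtttagggaccggcc, which begins 117 bases before the AOC1 start and 19 bases before the AOC2 start. It ends on the last base of the AOC2 window, and whether the match goes on past that edge was not looked at. AOC2 held no ACGT in this window, AOC1 and AOC3 held 1 each, LOX2 held 1 that begins 15 bases before its start, and OPR3 held 2. Across the 10 genes, 8 windows held an ACGT, a share to be read beside the 44.1% of 27443 RefSeq promoter windows of the same length. The CACGTG G-box, found in 6.49% of promoter windows, occurred in AOS, where it is the last 6 bases before the RefSeq start. The AACGTG motif, searched on both strands and found in 7.54% of windows, occurred in LOX4 and AOC1. No window of the 10 held ACGTGTC (3.68% of windows), ACGTGGC (3.37%) or the ethylene-response GCCGCC (1.87%) on either strand. These matches are descriptions of the letters in these windows. Their distances hold for the RefSeq starts only, since the count table places several starts elsewhere. AOS (minus strand) starts at 17099595 in RefSeq and at 17099395 in the count table. AOC2 starts at 9406669 in RefSeq and at 9406873 in the count table, and LOX2 at 16525245 and 16525410.

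After mock treatment the order of the levels was nearly the same in both genotypes. AOC2 was highest at 162 ± 25.3 FPKM in cdk8 and 202 ± 17 FPKM in wild type (SD, n = 3 each), followed by AOS, LOX2, AOC1, JAR1 and OPR3. AOC3 and LOX6 came next, in changed order between the genotypes, with libraries that overlapped in cdk8. LOX3 and LOX4 were lowest, and their libraries overlapped in wild type. Under ABA, AOC2 stayed highest, at 227 ± 42.7 FPKM in cdk8 and 422 ± 61 FPKM in wild type. LOX2 followed it in wild type, apart from its neighbours, while in cdk8 AOS, AOC3, LOX2 and OPR3 followed in that order, each overlapping the next. LOX4 was lowest in both genotypes under ABA, at 0.582 ± 0.228 FPKM in cdk8 and 1.25 ± 0.72 FPKM in wild type, and rested on 33 to 109 counts per library there.

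**Figure D1:**
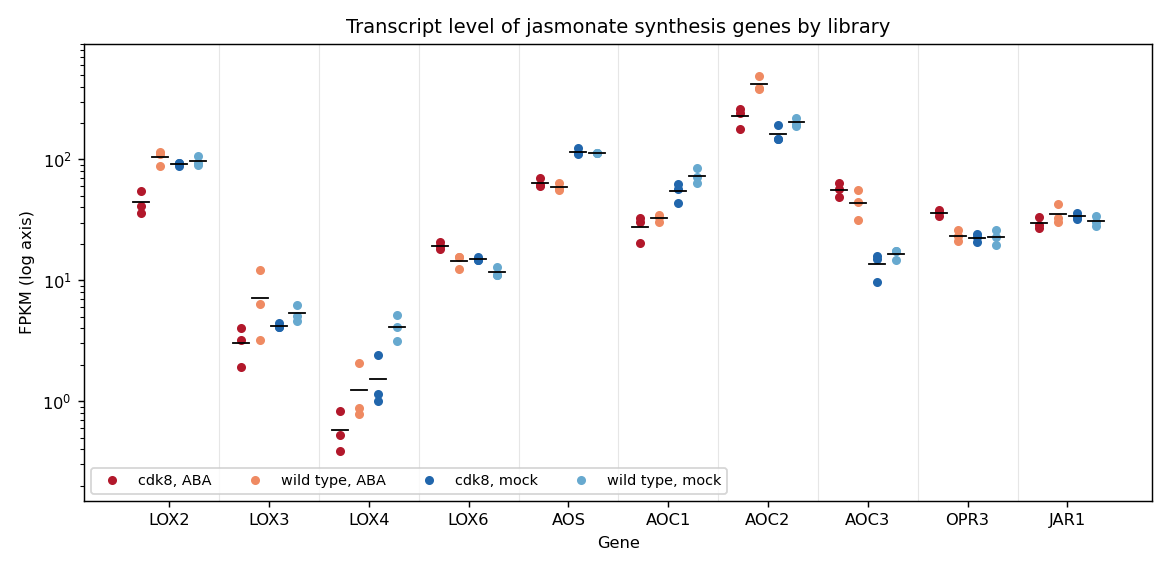
FPKM of each gene in every library on a log axis, with 1 point per library and a black line at the group mean (n = 3 per group). AOC2 lies at the top in all 4 groups and LOX4 at the bottom, and the 3 cdk8 ABA libraries of LOX2 lie at 36.1 to 54.9 FPKM, below the 9 others.

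Under ABA some genes of the pathway rose and others fell. In cdk8 seedlings, AOC3, OPR3, AOC2 and LOX6 were higher than after mock, and LOX4, LOX2, AOC1 and AOS were lower. In wild-type seedlings, AOC3, AOC2 and LOX6 were higher and LOX4, AOC1 and AOS were lower. In cdk8, 8 of 10 genes were called (4 higher and 4 lower), where 61% of all genes tested were called. In wild type, 6 of 10 were called (3 higher and 3 lower), where 64.7% of all genes were called. In whole seedlings, fewer cells of a type and less RNA per cell cannot be told apart. The median log2 fold change of the 10 genes was −0.32 in cdk8, against 0.007 over all genes, and 0.16 in wild type, against −0.009 over all genes.

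Between the genotypes, 5 of the 10 genes were called under ABA and 2 after mock. LOX2, AOC2 and LOX3 were lower and OPR3 and LOX6 higher in cdk8 ABA seedlings than in wild-type ABA seedlings, where 23.6% of all genes were called. After mock, LOX4 was lower and LOX6 higher in cdk8 seedlings than in wild type, where 13.1% of all genes were called. The ABA response itself differed between cdk8 and wild type for LOX2 and OPR3, 2 of 10 genes called, where 5.21% of all genes were called (2.37% with a higher and 2.85% with a lower response in cdk8). The median log2 fold change of the 10 genes, cdk8 over wild type, was −0.24 under ABA (0.005 over all genes) and −0.17 after mock (0.002 over all genes). These comparisons share libraries with each other, so their values are not independent. Without cdk8 ABA library 3, 3 of 10 genes were called between the genotypes under ABA, and without any 1 of the 6 mock libraries 0 or 1 were called after mock. Leaving out both libraries that stood apart gave 9 called for ABA in cdk8, 6 for ABA in wild type, 5 for genotype under ABA, and 2 each for genotype after mock and for the difference of responses. Without any 1 of 7 single libraries the count for the difference of responses was 1.

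**Figure D2:**
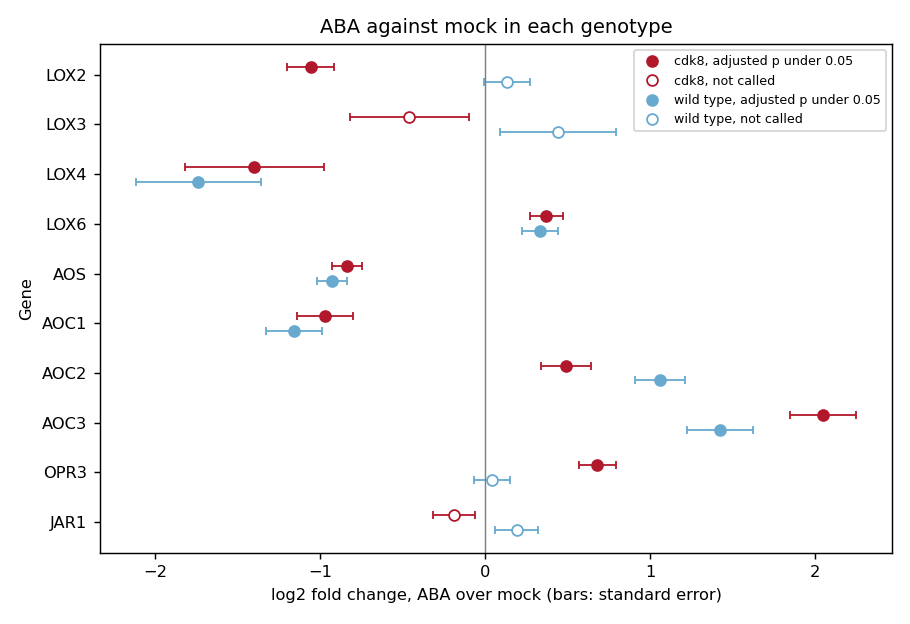
log2 fold change of ABA over mock for each gene, in cdk8 (red) and in wild type (blue), with bars for the SE and filled points for an adjusted p under 0.05. LOX2 lies at −1.06 in cdk8 and at 0.13 in wild type, and OPR3 at 0.68 in cdk8 and at 0.04 in wild type.

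LOX2 (AT3G45140, chr3:16525410-16529352, plus strand) encodes a main 13-lipoxygenase of leaves and is known to supply much of the oxylipin made in wounded leaves. It had 54.9, 36.1 and 41.4 FPKM in the cdk8 ABA libraries, against 88.6, 111 and 116 FPKM in the wild-type ABA libraries. After mock it had 93.8, 94.0 and 88.2 FPKM in cdk8 and 106, 89.7 and 93.0 FPKM in wild type. The cdk8 ABA libraries were thus low, without overlap with any other group, and the other 3 groups lay close together. LOX2 fell under ABA in cdk8, at log2 −1.06 ± 0.14 (adjusted p = 1.99e-05), while in wild type its change was 0.13 ± 0.14 (adjusted p = 0.452, 95% interval −0.15 to 0.41). Under ABA it was 2.38-fold lower in cdk8 than in wild type (log2 −1.25 ± 0.15, adjusted p = 6.34e-05), and after mock the difference was −0.07 ± 0.14 (adjusted p = 0.807, 95% interval −0.35 to 0.21). The difference of the responses, cdk8 minus wild type, was −1.19 ± 0.20 (adjusted p = 0.00599) and was called in all 22 alternatives run, with adjusted p from 1.71e-06 to 0.0197.

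LOX3 (AT1G17420, chr1:5977411-5981480, plus strand) and LOX4 (AT1G72520, chr1:27308515-27312754, plus strand) are a close pair of lipoxygenases that wounding induces and that act redundantly in male fertility. LOX3 had 1.93, 4.01 and 3.22 FPKM in the cdk8 ABA libraries, against 12.1, 3.18 and 6.31 FPKM in the wild-type ABA libraries. After mock it had 4.4, 4.07 and 4.11 FPKM in cdk8 and 6.25, 4.61 and 5.09 FPKM in wild type. Wild-type ABA library 1 was far above the rest, while wild-type ABA library 2 lay within the cdk8 ABA range. Under ABA, LOX3 was lower in cdk8 by a log2 fold change of −1.24 ± 0.36 (adjusted p = 0.0227), which became −0.64 with an adjusted p of 0.127 without wild-type ABA library 1. Its adjusted p was 0.0944 without cdk8 ABA library 1 and 0.0501 without cdk8 ABA library 3. ABA changes of LOX3 were not called in cdk8 (−0.46 ± 0.36, adjusted p = 0.287) or in wild type (0.44 ± 0.35, adjusted p = 0.285), and the wild-type value turned to −0.16 without ABA library 1 and was called at 0.79 (adjusted p = 0.0251) without ABA library 2.

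LOX4 had 0.385, 0.53 and 0.832 FPKM in the cdk8 ABA libraries, against 2.07, 0.778 and 0.886 FPKM in the wild-type ABA libraries. After mock it had 1.01, 1.15 and 2.39 FPKM in cdk8, against 5.16, 3.16 and 4.11 FPKM in wild type. Wild-type mock libraries were the highest, above every other library, and ABA libraries of both genotypes lay below the mock libraries of their own genotype. LOX4 fell under ABA, at log2 −1.4 ± 0.42 in cdk8 (adjusted p = 0.00964) and −1.74 ± 0.38 in wild type (adjusted p = 0.00123). The cdk8 change was −0.90 with an adjusted p of 0.0853 without cdk8 mock library 3. After mock, LOX4 was 2.71-fold lower in cdk8 than in wild type (log2 −1.44 ± 0.37, adjusted p = 0.0221), a call lost without cdk8 mock library 1 (adjusted p = 0.0902), cdk8 mock library 2 (0.0997), wild-type mock library 1 (0.0858) or wild-type mock library 3 (0.0601). Under ABA the genotype difference was −1.10 ± 0.43 (adjusted p = 0.077, 95% interval −1.94 to −0.26), and the difference of responses was 0.33 ± 0.57 (adjusted p = 0.789).

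Early touch and wound genes, a list of 8 with TCH4, WRKY40 and ERF4 among them, also differed between the groups. Their summed level was 189 to 265 CPM in cdk8 mock libraries, against 526 to 565 CPM in wild-type mock libraries, and 6 of 8 were lower in cdk8, where 8% of all genes were lower. Under ABA 4 of 8 were lower in cdk8 and 0 higher, where 13% of all genes were lower: TCH3 at log2 −1.99 ± 0.27, CML38 at −1.5 ± 0.42, ERF4 at −1.14 ± 0.12 and WRKY40 at −1.1 ± 0.21. The CML38 call was lost without cdk8 ABA library 1 or wild-type ABA library 1. Under ABA the sum was 764 to 1310 CPM in cdk8 and 983 to 1710 CPM in wild type, of which TCH4 alone made up a mean of 784 CPM in cdk8 and 757 CPM in wild type. The sum was highest in wild-type ABA library 1, which also had the highest LOX3 and LOX4 of its group. None of the 8 was at 0 in any library, and their part in the LOX3 and LOX4 values was not tested.

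LOX6 (AT1G67560, chr1:25319899-25324264, plus strand) encodes the lipoxygenase known for the fast rise of jasmonate after wounding and for jasmonate in roots. It had 18, 19.2 and 20.7 FPKM in the cdk8 ABA libraries, against 15.7, 12.4 and 15.6 FPKM in the wild-type ABA libraries. After mock it had 14.7, 15.6 and 14.7 FPKM in cdk8, against 12.8, 11 and 11 FPKM in wild type. The cdk8 libraries lay above the wild-type libraries within each treatment, by a small margin. LOX6 was higher in cdk8 by 0.41 ± 0.10 under ABA (log2, adjusted p = 0.0125) and by 0.37 ± 0.10 after mock (adjusted p = 0.0324). It rose under ABA by 0.37 ± 0.10 in cdk8 (adjusted p = 0.00693) and by 0.33 ± 0.11 in wild type (adjusted p = 0.0133), where ABA and mock libraries overlapped. The difference of responses was 0.04 ± 0.15 (adjusted p = 0.921, 95% interval −0.25 to 0.32). The genotype call under ABA was lost without cdk8 ABA library 3 (adjusted p = 0.056) or wild-type ABA library 2 (0.0592), and after mock without any 1 mock library other than wild-type mock library 1 (adjusted p from 0.0678 to 0.12). The wild-type ABA call was lost without ABA library 1 (adjusted p = 0.0514), mock library 2 (0.063) or mock library 3 (0.0533), and with upper-quartile scaling (0.19, adjusted p = 0.109).

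Of the summed FPKM of the 4 lipoxygenases, LOX2 made up 65.3 ± 6.77% in cdk8 ABA seedlings and 81.8 ± 6.43% in wild-type ABA seedlings (SD, n = 3 each). After mock its share was 81.6 ± 0.929% in cdk8 and 82.1 ± 0.656% in wild type. The sum itself was 67.1 ± 7.69 FPKM in cdk8 under ABA, against 128 ± 10.1 FPKM in wild type under ABA, and 113 ± 3.21 FPKM in cdk8 after mock, against 117 ± 11.5 FPKM in wild type after mock. The cdk8 ABA group was therefore the one with the smallest lipoxygenase sum and the smallest LOX2 share.

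AOS (AT5G42650, chr5:17097595-17099395, minus strand) encodes the only allene oxide synthase of Arabidopsis, and its loss removes jasmonate. It had 70.3, 60.6 and 61.9 FPKM in the cdk8 ABA libraries, against 123, 112 and 110 FPKM in the cdk8 mock libraries. In wild type it had 58.3, 55.7 and 64.2 FPKM under ABA, against 113, 113 and 113 FPKM after mock. Every ABA library lay below every mock library, and the genotypes lay side by side. AOS fell under ABA, at log2 −0.84 ± 0.09 in cdk8 (adjusted p = 1.76e-06) and −0.93 ± 0.09 in wild type (adjusted p = 6.2e-07). Between genotypes its log2 fold change was 0.11 ± 0.09 under ABA (adjusted p = 0.383, 95% interval −0.06 to 0.29) and 0.03 ± 0.09 after mock (adjusted p = 0.879, 95% interval −0.15 to 0.20), and the difference of responses was 0.09 ± 0.13 (adjusted p = 0.744).

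The tandem cyclase genes changed unlike each other under ABA: AOC1 fell while its neighbours AOC2 and AOC3 rose, in both genotypes. AOC1 (AT3G25760, chr3:9403883-9405250, plus strand) had 32.6, 30.1 and 20.5 FPKM in the cdk8 ABA libraries, against 62.6, 43.6 and 56.8 FPKM in the cdk8 mock libraries. In wild type it had 33.4, 30.1 and 34.9 FPKM under ABA, against 85.0, 71.7 and 63.6 FPKM after mock. ABA libraries lay below mock libraries in both genotypes, by log2 −0.97 ± 0.17 in cdk8 (adjusted p = 0.000189) and −1.16 ± 0.17 in wild type (adjusted p = 3.46e-05). Between genotypes AOC1 differed by −0.24 ± 0.17 under ABA (adjusted p = 0.328) and by −0.43 ± 0.17 after mock (adjusted p = 0.103). The cdk8 mock libraries were all below the wild-type mock libraries, the highest cdk8 library at 62.6 FPKM and the lowest wild-type library at 63.6 FPKM.

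AOC2 (AT3G25770, chr3:9406873-9407955, plus strand) was the highest of the 10 genes in all 4 groups. It had 241, 261 and 179 FPKM in the cdk8 ABA libraries, against 390, 384 and 492 FPKM in the wild-type ABA libraries. After mock it had 191, 147 and 147 FPKM in cdk8 and 221, 188 and 197 FPKM in wild type. Wild-type ABA libraries stood above all others, and in cdk8 the lowest ABA library lay within the mock range. AOC2 rose under ABA by 0.49 ± 0.15 in cdk8 (log2, adjusted p = 0.0122) and by 1.06 ± 0.15 in wild type (adjusted p = 3.02e-05). The cdk8 call was lost without cdk8 ABA library 2 (adjusted p = 0.0562), cdk8 mock library 2 (0.0538) or cdk8 mock library 3 (0.0545). Under ABA it was 1.86-fold lower in cdk8 than in wild type (log2 −0.89 ± 0.15, adjusted p = 0.00106), and after mock the difference was −0.32 ± 0.15 (adjusted p = 0.185). The difference of the responses, −0.57 ± 0.21, was not called (adjusted p = 0.14, 95% interval −0.99 to −0.15).

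AOC3 (AT3G25780, chr3:9409290-9410567, plus strand) had the largest ABA rise of the 10 genes in both genotypes. It had 48.4, 63.4 and 57.1 FPKM in the cdk8 ABA libraries, against 15, 9.69 and 16 FPKM in the cdk8 mock libraries. In wild type it had 55.7, 31.7 and 44.5 FPKM under ABA, against 17.3, 14.7 and 17.4 FPKM after mock. ABA and mock libraries did not overlap in either genotype. The rise was 4.14-fold in cdk8 (log2 2.05 ± 0.20, adjusted p = 8.88e-07) and 2.67-fold in wild type (log2 1.42 ± 0.20, adjusted p = 2.65e-05). The difference of the responses, 0.63 ± 0.28, was not called (adjusted p = 0.214, 95% interval 0.08 to 1.18), and neither was the genotype difference under ABA (0.36 ± 0.19, adjusted p = 0.193) or after mock (−0.27 ± 0.21, adjusted p = 0.425).

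The make-up of the tandem's transcripts therefore differed between treatments. AOC1 made up 8.86 ± 1.1% of the summed AOC1, AOC2 and AOC3 FPKM in cdk8 ABA seedlings, against 23.6 ± 2.02% in cdk8 mock seedlings, and 6.61 ± 0.447% in wild-type ABA seedlings, against 25.1 ± 1.91% in wild-type mock seedlings (SD, n = 3 each). AOC3 made up 18.4 ± 3.62% in cdk8 ABA, 8.83 ± 2.43% in wild-type ABA, 5.9 ± 1.24% in cdk8 mock and 5.65 ± 0.511% in wild-type mock seedlings. AOC2 made up 72.8 ± 2.63% in cdk8 ABA and 84.6 ± 2.74% in wild-type ABA seedlings, whose libraries did not overlap, and 70.5 ± 3.3% in cdk8 mock and 69.3 ± 1.42% in wild-type mock seedlings. The sum of the 3 genes was 311 ± 49.9 FPKM in cdk8 ABA, 499 ± 65.3 FPKM in wild-type ABA, 230 ± 35.5 FPKM in cdk8 mock and 292 ± 27.2 FPKM in wild-type mock seedlings.

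**Figure D3:**
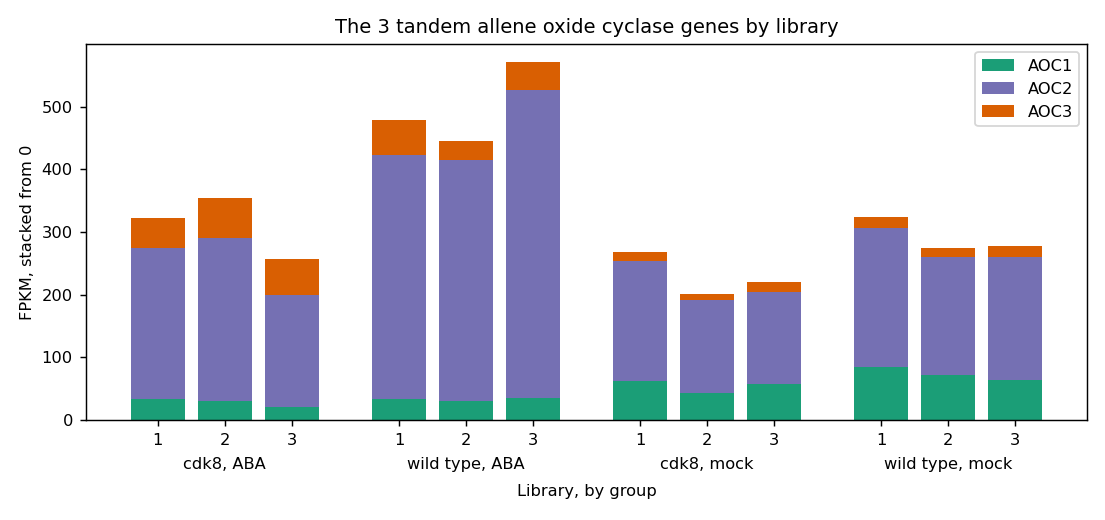
FPKM of AOC1, AOC2 and AOC3 stacked from 0 in each library, grouped by genotype and treatment. AOC1 takes a smaller share of the ABA bars than of the mock bars and AOC3 a larger one, and the wild-type ABA bars (446 to 572 FPKM) stand above the cdk8 ABA bars (257 to 355 FPKM).

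OPR3 (AT2G06050, chr2:2359114-2362302, minus strand) encodes the peroxisomal OPDA reductase, whose loss leaves plants male sterile. It had 36.8, 33.9 and 38.1 FPKM in the cdk8 ABA libraries, against 25.9, 21.1 and 23.3 FPKM in the wild-type ABA libraries. After mock it had 22.9, 20.8 and 24.0 FPKM in cdk8 and 25.9, 19.5 and 22.8 FPKM in wild type. The cdk8 ABA libraries were high, above all 9 others, and the remaining 3 groups overlapped. OPR3 rose under ABA in cdk8 by 0.68 ± 0.11 (log2, adjusted p = 0.000104), while in wild type its change was 0.04 ± 0.11 (adjusted p = 0.752, 95% interval −0.18 to 0.26). Under ABA it was 1.55-fold higher in cdk8 than in wild type (log2 0.63 ± 0.11, adjusted p = 0.00136), and after mock the difference was −0.01 ± 0.11 (adjusted p = 0.971, 95% interval −0.23 to 0.21). The difference of the responses was 0.64 ± 0.16 (adjusted p = 0.0333), and it missed the threshold without any 1 of 7 libraries, with adjusted p from 0.0721 to 0.0869 and values from 0.53 to 0.65. These were cdk8 ABA libraries 1 and 3, wild-type ABA library 2, cdk8 mock libraries 1 and 2, and wild-type mock libraries 1 and 3.

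JAR1 (AT2G46370, chr2:19033741-19036659, plus strand), the enzyme of jasmonoyl-isoleucine formation, was called in none of the 5 comparisons by edgeR, DESeq2 or limma-voom. Its unadjusted p was 0.0628 for the difference of responses and 0.0811 for genotype under ABA, the lowest of the 5. It had 28.8, 33.6 and 27 FPKM in the cdk8 ABA libraries, against 30.2, 32.7 and 42.9 FPKM in the wild-type ABA libraries, and 36.3, 33.5 and 31.9 FPKM in cdk8 after mock, against 34.2, 28.2 and 30.5 FPKM in wild type. All 4 groups overlapped. Its log2 change under ABA was −0.19 ± 0.13 in cdk8 (95% interval −0.44 to 0.07) and 0.19 ± 0.13 in wild type (95% interval −0.07 to 0.44), and the cdk8 change was called at −0.29 (adjusted p = 0.0208) when both libraries that stood apart were left out. The genotype difference was −0.24 ± 0.13 under ABA (95% interval −0.50 to 0.01) and 0.13 ± 0.13 after mock (95% interval −0.13 to 0.38).

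**Figure D4:**
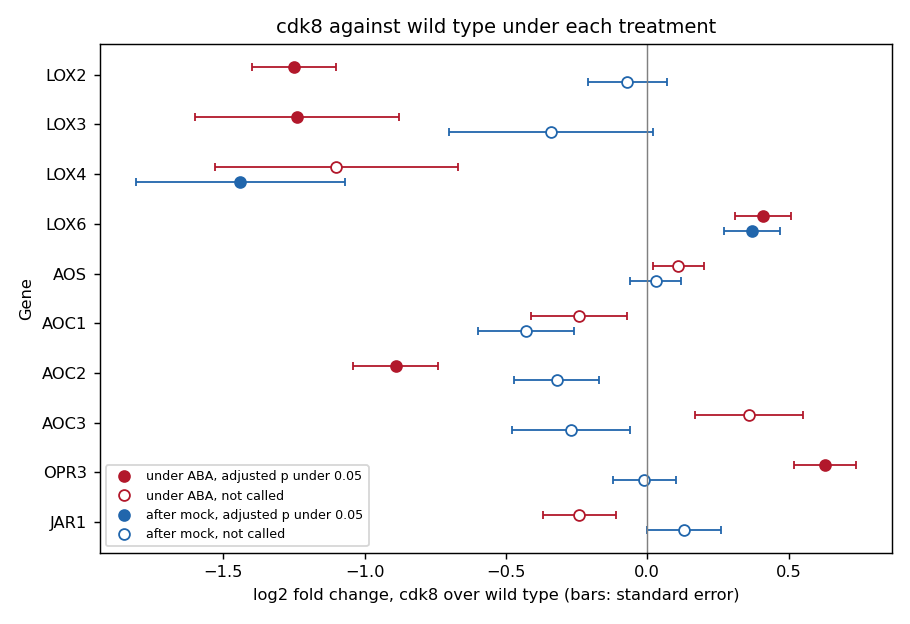
log2 fold change of cdk8 over wild type for each gene under ABA (red) and after mock (blue), with bars for the SE and filled points for an adjusted p under 0.05. LOX2 lies at −1.25 under ABA and −0.07 after mock, OPR3 at 0.63 under ABA and −0.01 after mock, and LOX6 at 0.41 under ABA and 0.37 after mock.

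Shoot marker genes were far lower under ABA, at a summed 7860 to 8530 CPM in cdk8, against 20100 to 22900 CPM in cdk8 mock libraries, and at 6620 to 7550 CPM in wild type, against 17300 to 18800 CPM in wild-type mock libraries. Root markers summed to 119 to 180 CPM in cdk8 ABA, against 239 to 267 CPM in cdk8 mock, and to 125 to 139 CPM in wild-type ABA, against 204 to 247 CPM in wild-type mock libraries. Among the root markers PRP3 had 8.5 ± 3.31 CPM in cdk8 ABA, against 94.3 ± 18 CPM in cdk8 mock, which is most of the change of the sum, while PIN2 rose by 1.1 ± 0.2 in cdk8 (log2, adjusted p = 0.000261) and PHT1;1 had 63.4 ± 12 CPM in cdk8 ABA, against 55.1 ± 3.29 CPM in cdk8 mock seedlings. Of the 8 root markers, 5 fell and 1 rose in cdk8, where 30.4% of all genes fell and 30.6% rose. In wild type 4 fell and 0 rose, where 32.8% of all genes fell and 31.9% rose. The part of these shifts in the falls of AOS and AOC1 was not tested. Hypoxia genes were higher under ABA, at 432 to 628 CPM in cdk8 and 874 to 1230 CPM in wild type, against 22.8 to 29.2 CPM in mock-treated cdk8 and 58 to 96.1 CPM in wild-type mock libraries, and 1 of the 8 was at 0 in a cdk8 mock library. Of these sums, ADH1 alone made up a mean of 385 CPM in cdk8 ABA and 739 CPM in wild-type ABA seedlings. Of the 8 hypoxia genes, 7 rose and 0 fell under ABA in cdk8, and 8 rose and 0 fell in wild type, beside the shares of all genes given above. Their part in the genotype differences of LOX2, AOC2 and OPR3 was not tested.

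By the root mean square difference of centred log2 CPM profiles over the 12 libraries, OPR3 and LOX6 were the closest pair of the 10 genes, 0.18 apart, LOX6 at rank 76 from OPR3 and OPR3 at rank 394 from LOX6 among the other 21150 genes tested. AOC1 and AOS were 0.29 apart, with AOS at rank 264 from AOC1 and AOC1 at rank 2537 from AOS. For the other 6 genes the nearest of the 10 lay 0.34 to 0.76 away, at ranks from 562 to 7440. Among 7892 genes with at least 5 CPM in a group and a symbol, the nearest to LOX2 were SGR5 (0.24) and CNGC4 (0.25). AOS lay next to FVE (0.07) and PKT4 (0.09), AOC1 next to RTFL8 (0.18) and GLR2.7 (0.19), and AOC2 next to PTF1 and AIR3 (0.17 each). AOC3 lay next to UGE2 (0.22) and DI21 (0.25), and OPR3 next to GPK1 and PARG2 (0.14 each). LOX6 lay next to MYB65 and SAC9 (0.10 each), JAR1 next to GATA10 (0.10) and DRT101 (0.11), LOX3 next to ASPGB1 (0.31) and LRX2 (0.34), and LOX4 next to PERK4 (0.38) and SIB1 (0.44).

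Among 18 other genes of jasmonate synthesis, 16 were tested, and most were higher under ABA: 11 rose and 3 fell in cdk8, and 10 rose and 3 fell in wild type. Among all genes, 30.6% rose and 30.4% fell in cdk8, and 31.9% rose and 32.8% fell in wild type. ACX1, an acyl-CoA oxidase of peroxisomal beta-oxidation, had 583 ± 25.2 CPM in cdk8 ABA and 934 ± 136 CPM in wild-type ABA seedlings, against 102 ± 2.04 CPM in mock-treated cdk8 and 107 ± 11.3 CPM in wild-type mock seedlings. Its rise was 2.52 ± 0.12 in cdk8 (log2, adjusted p = 5.19e-10) and 3.13 ± 0.12 in wild type (adjusted p = 7.48e-11), with a difference of responses of −0.61 ± 0.16 (adjusted p = 0.04). That difference missed the threshold without any 1 of 8 libraries (adjusted p from 0.0701 to 0.103), which were cdk8 ABA libraries 1 and 3, wild-type ABA library 1, all 3 cdk8 mock libraries and wild-type mock libraries 2 and 3. It also missed it with upper-quartile scaling (adjusted p = 0.0502). PKT3, the thiolase of the same cycle also called KAT2, rose by 1.29 ± 0.09 in cdk8 and 1.73 ± 0.09 in wild type. The plastid desaturases FAD7 and FAD8, which make the trienoic precursors, fell in both genotypes, FAD8 at log2 −2.41 ± 0.12 in cdk8 and −2.11 ± 0.12 in wild type, and FAD7 at −1.11 ± 0.09 in cdk8 and −1.03 ± 0.09 in wild type. OPCL1, the ligase that activates the OPR3 product for beta-oxidation, fell, at log2 −0.29 ± 0.12 in cdk8 and −1.18 ± 0.12 in wild type, and its difference of responses, 0.89 ± 0.17, was called (adjusted p = 0.00943). Its fall in cdk8 (adjusted p = 0.043) lost the call without any 1 of 6 libraries: cdk8 ABA library 1 or 3, wild-type ABA library 2, cdk8 mock library 1 or 3, or wild-type mock library 3. Between genotypes, 1 was higher and 7 lower in cdk8 under ABA (10.6% higher and 13% lower among all genes), and 1 was higher and 4 lower after mock (5.15% higher and 8% lower among all genes). The 8 calls under ABA became 5 without cdk8 ABA library 1 or 3 or wild-type ABA library 1 or 2, and the 5 after mock became 3 without cdk8 mock library 1 and 2 without cdk8 mock library 2 or wild-type mock library 1.

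Enzymes that draw on the same fatty acids by other routes moved as follows. LOX1, a 9-lipoxygenase, had 111 ± 11.6 CPM in cdk8 ABA, against 94.9 ± 3.28 CPM in cdk8 mock seedlings, and 208 ± 45.2 CPM in wild-type ABA, against 80.0 ± 8.43 CPM in wild-type mock seedlings, where it rose by 1.38 ± 0.14 (log2, adjusted p = 1.09e-06). Its difference of responses was −1.15 ± 0.20 (adjusted p = 0.00599), beside −1.19 for LOX2. DOX1, an alpha-dioxygenase, rose in both genotypes, by 1.2 ± 0.18 in cdk8 and 1.78 ± 0.18 in wild type, and was lower in cdk8 under ABA by a log2 fold change of −0.64 ± 0.18 (adjusted p = 0.0197), a call lost without cdk8 ABA library 1 or 3 or wild-type ABA library 1 (adjusted p from 0.0697 to 0.0776). HPL1 fell under ABA in cdk8, at log2 −1.92 ± 0.35 (adjusted p = 0.000255). It had 0.854 ± 0.429 CPM there, against 3.23 ± 0.534 CPM after mock. LOX5 had 9.05 ± 0.363 CPM in cdk8 ABA, against 9.01 ± 0.933 CPM in cdk8 mock seedlings. In wild type LOX5 had 10.1 ± 2.49 CPM under ABA, against 10.9 ± 2.45 CPM after mock. Of the 4 genes of this kind, 2 were lower and 0 higher in cdk8 than in wild type under ABA. Among all genes, 13% were lower and 10.6% higher. The 2 became 1 without cdk8 ABA library 1.

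Of 11 genes of jasmonate breakdown and modification, 7 rose and 3 fell under ABA in cdk8 and 8 rose and 2 fell in wild type, beside 30.6% rising and 30.4% falling among all genes in cdk8 and 31.9% rising and 32.8% falling in wild type, with a median log2 fold change of 1.08 in cdk8 and 2.23 in wild type, the highest of the jasmonate lists in both. AT3G11180, with 0 counts in wild-type ABA and 18 in wild-type mock libraries, is the lowest value of the list at its fitted fold change and at its bound, so the median holds at either. CYP94B3, which hydroxylates jasmonoyl-isoleucine, had 105 ± 11.8 CPM in cdk8 ABA and 275 ± 92.4 CPM in wild-type ABA seedlings, against 2.54 ± 0.83 CPM in mock-treated cdk8 and 4.44 ± 1.36 CPM in wild-type mock seedlings. Under ABA 6 of the 11 were lower in cdk8 and 0 higher, where 13% of all genes were lower and 10.6% higher, among them CYP94B3 at log2 −1.4 ± 0.22 (adjusted p = 0.000666) and CYP94C1, a further oxidase of the same conjugate, at −1.42 ± 0.22 (adjusted p = 0.000643). IAR3, an amidohydrolase that splits the conjugate, rose by 2.21 ± 0.14 in cdk8 and 2.23 ± 0.14 in wild type. JRG21, a jasmonate-regulated oxygenase gene, had 7.74 ± 2.1 CPM in cdk8 ABA and 47.9 ± 33.6 CPM in wild-type ABA seedlings, against 3.92 ± 3.09 CPM in mock-treated cdk8 and 1.41 ± 0.469 CPM in wild-type mock seedlings, and its difference of responses was −4.13 ± 0.81 (adjusted p = 0.0118), not called by limma-voom (−3.66, adjusted p = 0.0721).

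Of the perception and transcription factor genes, 0 of 11 were called between the genotypes under ABA by edgeR, 0 by DESeq2, 0 by limma-voom and 1, MYC2, at an unadjusted p under 0.05. Among all genes, 23.6% were called by edgeR in this comparison. With upper-quartile scaling, and without wild-type ABA library 1, 1 of 11 was called. COI1, the receptor subunit, fell under ABA in cdk8 at log2 −0.57 ± 0.08 (adjusted p = 3.48e-05), to 32.7 ± 2.14 CPM, against 48.5 ± 3.01 CPM after mock, while in wild type its change was −0.16 ± 0.08 (adjusted p = 0.101) and the difference of responses was not called (adjusted p = 0.0609). MYC2, the main activator of jasmonate responses, rose by 0.92 ± 0.12 in cdk8 (adjusted p = 1.74e-05) and by 0.32 ± 0.12 in wild type (adjusted p = 0.032), and its difference of responses was not called (adjusted p = 0.0646). The wild-type call of MYC2 was lost without wild-type ABA library 1 or wild-type mock library 2. It was also lost with upper-quartile scaling (edgeR adjusted p = 0.184) and with only the groups compared (0.0861). For the difference of responses, 3 of the 11 genes were called with DESeq2, where 1723 of all genes were called. Without both libraries that stood apart it was also 3, where 2063 of all genes were called. MYC4, a relative of MYC2, fell, at −1.85 ± 0.14 in cdk8 and −1.64 ± 0.14 in wild type. Of 13 JAZ repressor genes, the feedback targets that hold MYC2 in check, 12 were tested: 7 rose and 1 fell under ABA in cdk8, and 7 rose and 2 fell in wild type. The 8 of 12 called in cdk8 and 9 of 12 in wild type stand beside 61% and 64.7% of all genes. JAZ1 rose by 2.73 ± 0.16 in cdk8, to 186 ± 29.9 CPM, against 28.1 ± 2.79 CPM after mock, and by 2.79 ± 0.16 in wild type, to 263 ± 40.9 CPM, against 37.9 ± 6.37 CPM after mock. Between genotypes, JAZ12 was higher (0.34 ± 0.09, adjusted p = 0.0178) and JAZ1 (−0.50 ± 0.15, adjusted p = 0.028) and JAZ11 (−0.45 ± 0.12, adjusted p = 0.0139) lower in cdk8 under ABA. The 3 called of 12 tested stand beside 23.6% of all genes, a share near their own. These 3 calls fell to 1 without cdk8 ABA library 1 or wild-type ABA library 3, and to 0 when only the groups compared were fitted (adjusted p from 0.0596 to 0.077).

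Of the jasmonate output genes, 5 of 8 tested were lower in cdk8 than in wild type under ABA and 5 of 8 after mock, with 0 called higher in either. Among all genes, 13% were lower under ABA and 8% after mock. In each comparison 3 were not called. After mock, uncalled TAT3 had 14.5 ± 14 CPM in cdk8, against 4.07 ± 4 CPM in wild type, and uncalled VSP1 had 44.2 ± 10.6 CPM, against 48.5 ± 14.9 CPM. CORI3, a jasmonate-induced cystine lyase, had 23.6 ± 8.04 CPM in cdk8 ABA, against 140 ± 55.5 CPM in wild-type ABA, and 11.3 ± 1.08 CPM in cdk8 mock, against 32.6 ± 4.54 CPM in wild-type mock seedlings. VSP2, a vegetative storage protein, was lower in cdk8 after mock at log2 −1.78 ± 0.28 (adjusted p = 0.00105), at 36.4 ± 11.6 CPM, against 125 ± 38.5 CPM in wild type. PDF1.2, a defensin of a near-identical family whose counts may be split among copies, had 0 counts over the cdk8 mock libraries and 149 over the wild-type mock libraries, at least 47.7-fold lower in cdk8 taking 3 counts over the group as its floor; at this bound the list's median stays at −0.85. The count after mock was 3 of 8 without cdk8 mock library 1, cdk8 mock library 2 or wild-type mock library 1. VSP2 rose under ABA in both genotypes, by 2.19 ± 0.28 in cdk8 and 1.92 ± 0.27 in wild type. Genes of the touch and wound list were lower in cdk8 as well, as given above, and their part in the output genes was not tested.

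**Figure D5:**
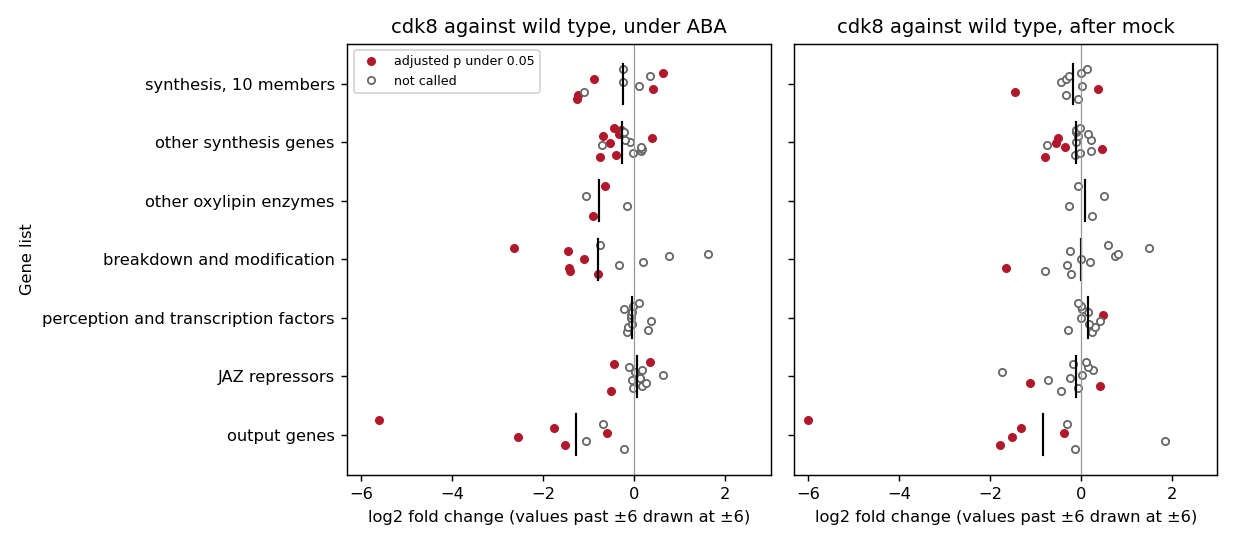
log2 fold change of cdk8 over wild type under ABA (left) and after mock (right) for each tested gene of the jasmonate lists, with 1 point per gene, filled at an adjusted p under 0.05, and a black line at each list's median. The medians of the output genes lie at −1.28 under ABA and −0.85 after mock, and those of the 10 synthesis genes at −0.24 under ABA and −0.17 after mock. Values past −6 are drawn at −6.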

How the data were processed

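RNA was measured in 12 libraries of whole seedlings. The deposited table holds fragment counts per gene, which per the file headers the authors made with featureCounts 1.4.6 in paired-end mode, summing exons by gene, with no option for strand. FastQC, TopHat2 and the TAIR10 genome are named in the submitters' processing notes; the sources used here give no aligner settings and no library preparation. Assigned fragments ranged from 17675785 to 27415053 per library, so that 3 counts corresponded to 0.109 to 0.17 CPM; such floors cover counting error only.

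Groups came from the labels. Genes were filtered with filterByExpr of edgeR 4.0.16 (R 4.3.3), which kept 21151 of 33602 and all 10 genes described. Counts were scaled by TMM and tested with quasi-likelihood F tests on 4 group means, with 5 contrasts and Benjamini-Hochberg adjustment over all genes tested. On simulated counts with known changes the procedure was tested first. Tables for FPKM used the summed exon length in the deposited table. DESeq2 1.42.0 and limma 3.58.1 served as alternatives, beside other scalings, filters and left-out libraries. Sequences came from RefSeq TAIR10.1, in which 124593 of 154279 nuclear exons of the table have the same ends.

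Of the other gene lists, up to 3 called genes in each direction per list and comparison were eligible to be named, by smallest p. For likeness of pattern, the 2 nearest genes with a symbol were named. The 10 genes, the lists and the rules were chosen with earlier results of these data known. Genes without a name in the annotation used are given by identifier.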

Additional observations from a re-analysis of the deposited data

Results flagged for a closer look

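The ABA response of LOX2 differed between the genotypes by the test of the difference itself, at −1.19 ± 0.20 on the log2 scale (cdk8 minus wild type, edgeR adjusted p = 0.00599). All 3 cdk8 ABA libraries of LOX2 lay below the other 9 libraries. The ABA response of OPR3 differed in the other direction, by 0.64 ± 0.16 (edgeR adjusted p = 0.0333), and all 3 cdk8 ABA libraries lay above the other 9. The OPR3 call was lost without any 1 of 7 libraries (edgeR adjusted p from 0.0721 to 0.0869), while the LOX2 call held in all 22 alternatives. For both genes the response in wild type was not called, at 0.13 for LOX2 and 0.04 for OPR3. Dixon's test of an outlying value was not run on single genes, whose groups hold 3 libraries each.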

How the results depend on the processing

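Of 1140 values of the 50 results on single genes, recomputed under 22 or 23 alternatives each, 1081 kept direction and side of the threshold, 40 lost a call, 4 gained one and 15 changed sign. The cause of these changes was not tested. The sign changes all concern results that were not called. With upper-quartile scaling LOX2 was −0.01 and OPR3 −0.09 for ABA in wild type, and OPR3 was 0 after mock with RLE scaling and with DESeq2. With each library left out in turn, ABA in wild type ranged from −0.16 (without ABA library 1) to 0.79 (without ABA library 2) for LOX3 and from −0.07 to 0.15 for OPR3, which also fell below 0 without ABA library 1 (−0.03). Genotype after mock ranged from −0.11 to 0.01 for LOX2, −0.02 to 0.06 for AOS and −0.1 to 0.1 for OPR3, and the difference of responses from −0.01 (without cdk8 ABA library 3) to 0.91 (without wild-type ABA library 1) for LOX4 and from −0.07 to 0.09 for LOX6, with −0.02 and −0.04 among its other values.

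Genes called among the 10 numbered 3 for genotype under ABA when only these groups were fitted or at an adjusted p under 0.01, and at 0.01 they numbered 0 after mock and 1 for the difference. Over all genes, genotype under ABA gave 2931 calls with only these groups and 2378 at 0.01, genotype after mock 4472, 1129 and, without both libraries that stood apart, 4383, and the difference 1723 with DESeq2, 269 at 0.01 and 2063 without both. Leaving out each library gave 6 to 8 calls for ABA in cdk8, 5 to 7 for ABA in wild type, 3 to 5 for genotype under ABA, 0 to 2 after mock and 1 to 2 for the difference, and over all genes 11828 to 13399, 12674 to 13977, 3099 to 5284, 1486 to 3432 and 540 to 1493. LOX4 under ABA was called with DESeq2 (−1.12, adjusted p = 0.0288), AOC1 after mock with only these groups (−0.44, adjusted p = 0.0353), and LOX3 under ABA lost its call with only these groups (adjusted p = 0.0879). Upper-quartile scaling moved the median of all genes for ABA in wild type to −0.145 and the share above 0 among called genes to 40.2%, against 49.3%, and to 54.2%, against 44.9%, for genotype under ABA and 58.5%, against 45.4%, for the difference.

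The column names number libraries r1 to r3 while the labels carry no number; same-numbered libraries deviated together with r from −0.29 to 0.09, so the numbers were not taken as pairs. A replicate block on them, added after the data were seen, gave 1 call among the 10 after mock and 650 over all genes for the difference, with adjusted p of 0.0536 for LOX3 under ABA and 0.0516 for LOX6 after mock. LOX4 rests on 33 to 327 counts per library, the fewest of the 10.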
